A study of Mus musculus with 10 samples.

Results

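The genes described here encode the enzymes that methylate lysine 4 of histone H3 and the subunits they share. They are 6 methyltransferases (Kmt2a, Kmt2b, Kmt2c, Kmt2d, Setd1a and Setd1b) and 4 core subunits (Wdr5, Ash2l, Rbbp5 and Dpy30), chosen by name as a known set of complexes. The choice was made with earlier results of these data known. All 10 were found by Ensembl gene identifier among the 55487 genes of the expression tables. The values come from 3 RNA-seq replicates of untreated E14, an embryonic stem cell line of the mouse, grown in medium with 15% serum, LIF, a GSK inhibitor at 3 µM and a MEK1/2 inhibitor at 1 µM. RNA was total RNA depleted of ribosomal RNA. The R-loop samples of the series, made by MapR and BisMapR, were not analysed here. With 1 group, the comparisons are between genes and between replicates. The labels do not say whether the replicates came from separate cultures, so the spread between them may be technical.

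Methylation of this lysine marks active regulatory DNA. Trimethylation is typical of promoters and monomethylation of enhancers. Each enzyme carries a catalytic SET domain and works as a complex on a shared core of WDR5, RBBP5, ASH2L and DPY30, which raises its activity. SETD1A and SETD1B deposit most trimethylation, KMT2A and KMT2B act at selected promoters, including bivalent promoters of developmental genes in embryonic stem cells, and KMT2C and KMT2D act mainly at enhancers.

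Totals of estimated counts per library were 11420425 for replicate 1, 6467405 for replicate 2 and 5787357 for replicate 3. The detection floor, 3 counts, equals 0.263, 0.464 and 0.518 CPM, counts scaled to the library total. Stem cell markers matched the label: all 8 listed genes had a mean TPM of at least 1, from 16.6 for Klf4 to 331 for Tdgf1. TPM, a transcript level scaled by length and library, allows genes to be compared. Of 8 fibroblast markers 1 reached that level (Thy1 at 2.50 TPM), as did 1 of 7 primitive endoderm, 2 of 5 neural and 0 of 5 mesoderm markers. Summed fibroblast markers were 4.57, 4.33 and 1.79 TPM in replicates 1, 2 and 3, with Col3a1, Postn, Twist2 and Lum at 0 counts in each. Replicate 3 stood apart by gene length in these libraries, so values are given by replicate and the main comparisons also without it.

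Promoter windows from RefSeq (GRCm38.p6, 250 bp before to 50 bp after the start) were present for 7 of the 10 genes. Windows of the enzymes Kmt2a and Kmt2d and of the core subunit Rbbp5 are shown. After the scaling between libraries described below, replicate 3 was low for both enzymes and not for Rbbp5. Letters run 5′ to 3′ on the gene's strand, and capitals mark the GC box GGGCGG or its reverse complement CCGCCC. The Kmt2a window is chr9:44881240-44881539, minus strand, the Kmt2d window chr15:98871156-98871455, minus strand, and the Rbbp5 window chr1:132477117-132477416, plus strand.
Kmt2a: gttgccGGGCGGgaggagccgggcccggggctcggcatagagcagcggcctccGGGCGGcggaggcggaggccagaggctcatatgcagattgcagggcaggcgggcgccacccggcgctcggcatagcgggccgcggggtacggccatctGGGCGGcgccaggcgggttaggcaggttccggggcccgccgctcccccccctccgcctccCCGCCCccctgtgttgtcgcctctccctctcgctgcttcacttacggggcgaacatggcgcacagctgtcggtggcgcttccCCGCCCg
Kmt2d: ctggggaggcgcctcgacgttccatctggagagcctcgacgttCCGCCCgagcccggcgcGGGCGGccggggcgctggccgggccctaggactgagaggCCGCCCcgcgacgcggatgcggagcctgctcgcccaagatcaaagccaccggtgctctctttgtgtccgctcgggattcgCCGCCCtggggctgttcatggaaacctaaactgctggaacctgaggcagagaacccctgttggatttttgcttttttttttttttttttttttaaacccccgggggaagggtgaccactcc
Rbbp5: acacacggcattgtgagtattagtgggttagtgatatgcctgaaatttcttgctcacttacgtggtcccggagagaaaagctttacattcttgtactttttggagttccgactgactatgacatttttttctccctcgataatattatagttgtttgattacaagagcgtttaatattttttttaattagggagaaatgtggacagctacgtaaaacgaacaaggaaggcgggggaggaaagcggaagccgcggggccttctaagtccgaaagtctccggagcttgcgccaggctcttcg

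The GC box, searched on both strands, was present in 4 of the 7 windows against 35.7% of 32851 mouse promoters. It occurred 5 times in the Kmt2a window, 4 times in that of Kmt2d, 12 times in that of Kmt2c and 2 times in that of Wdr5. The windows of Rbbp5, Setd1a (at a RefSeq start 719 bp from the annotated gene start) and Dpy30 (at its annotated gene start) held none. The CCAAT box (CCAAT or ATTGG) was found in the Dpy30 window alone, against 37.4% of promoters, and the TATA box (TATAAA or TTTATA) in 0 of 7, against 13.6%. CG dinucleotides numbered 36 for Kmt2a, 27 for Kmt2d, 56 for Kmt2c and 35 for Setd1a among the enzymes, and 22 for Wdr5, 16 for Rbbp5 and 1 for Dpy30 among the core subunits, against a median of 7. RefSeq lists 3 more starts for Dpy30, between 7511 and 7733 bp from the annotated gene start, whose windows held 30, 34 and 39 CG dinucleotides, the last of them with 1 GC box; which start the reads came from was not analysed here. These matches describe the letters of the windows and do not show binding. A link between them and the values in replicate 3 was not tested. Of the genes with a window, Kmt2a, Kmt2c and Kmt2d were low there and had GC boxes, and Setd1a was low there and had none. Those not low there were Wdr5, which had GC boxes, and Rbbp5 and Dpy30 (at its annotated gene start), which had none.

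The first question was whether the genes were expressed and at what level. Of the 10 genes, 9 had a mean of at least 1 TPM, against 19.8% of all genes and 44.2% of protein-coding genes. Setd1b was the exception. The count was also 9 without replicate 3. The median of the 10 was 9.06 TPM, but it joins 2 unlike groups, with medians of 34.0 for the core subunits and 4.01 for the enzymes. The median of protein-coding genes that reached 1 TPM, a limit not applied to the 10, was 5.73. The core subunits lay at the upper end, and every enzyme lay below every core subunit by mean TPM.

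**Figure D1:**
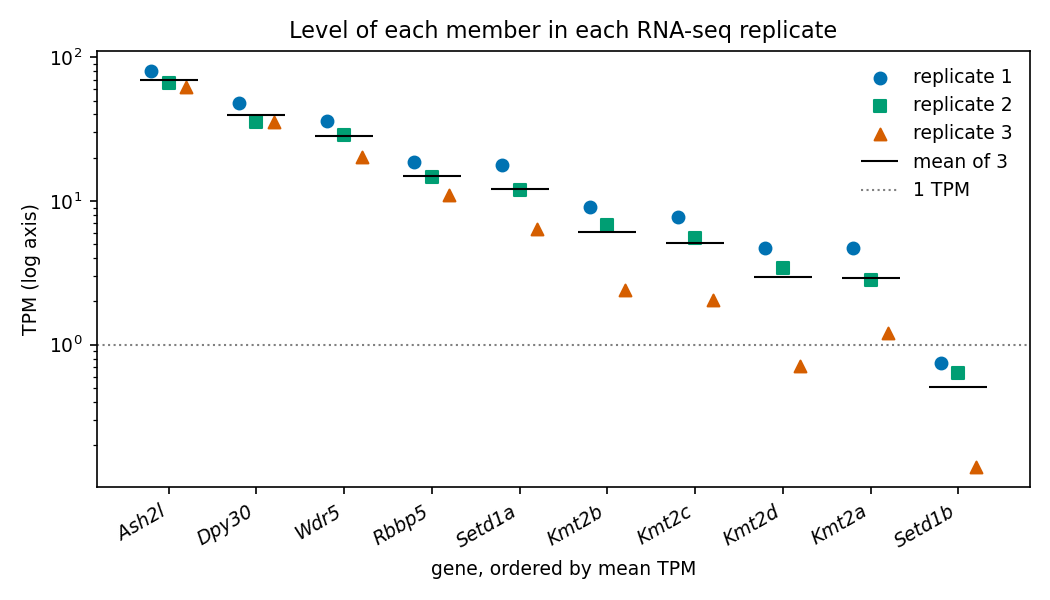
TPM on a log axis for the 10 genes, ordered by mean; points are the 3 replicates, black bars their mean and the dotted line 1 TPM. Ash2l is highest at a mean of 69.7 TPM, Setd1b lowest at 0.507 TPM, and replicate 3 (triangles) is the lowest point of every gene but Dpy30.

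Among the core subunits, Ash2l, which binds DPY30 and RBBP5 and joins them to the enzyme (ENSMUSG00000031575, chromosome 8, 25815996 to 25847694), had 80.8, 66.1 and 62.2 TPM in replicates 1, 2 and 3, a mean of 69.7 ± 9.81 (SD, n = 3). It was the highest gene of the set in every replicate. Dpy30, a small protein that binds ASH2L (ENSMUSG00000024067, chromosome 17, 74299474 to 74323944), had 47.8, 35.3 and 35.6 TPM. Its replicates 2 and 3 were nearly level. Wdr5, the WD40 protein that binds a short motif in the enzymes (ENSMUSG00000026917, chromosome 2, 27515157 to 27536535), had 36.3, 28.9 and 20.1 TPM. Rbbp5, another WD40 protein (ENSMUSG00000026439, chromosome 1, 132477365 to 132505659), was the lowest of the core at 18.8, 14.8 and 11.0 TPM. Its highest replicate lay below the lowest replicate of each other core subunit.

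Of the SET1 enzymes, Setd1a (ENSMUSG00000042308, chromosome 7, 127776670 to 127800122) had 17.7, 12.01 and 6.41 TPM, a mean of 12.03 ± 5.63 (SD, n = 3), the highest of the 6 enzymes. Its paralogue Setd1b (ENSMUSG00000038384, chromosome 5, 123142193 to 123168629) had 0.74, 0.64 and 0.14 TPM, from 123, 79 and 16 estimated counts. These counts lay above the floor in every replicate, so Setd1b was detected but low. The replicates of the pair did not overlap.

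The enzymes of the KMT2A and KMT2B complexes were intermediate. Kmt2b (ENSMUSG00000006307, chromosome 7, 30568858 to 30588726) had 9.12, 6.77 and 2.39 TPM, and Kmt2a (ENSMUSG00000002028, chromosome 9, 44803355 to 44881296) 4.73, 2.83 and 1.20 TPM. Kmt2b was the higher of the pair in each replicate, although the ranges over replicates overlapped. Of the enhancer enzymes, Kmt2c (ENSMUSG00000038056, chromosome 5, 25271798 to 25498783) had 7.68, 5.53 and 2.05 TPM. Kmt2d (ENSMUSG00000048154, chromosome 15, 98831669 to 98871204) had 4.69, 3.42 and 0.71 TPM and was the only gene of the set to cross 1 TPM between replicates. In TPM all 6 enzymes were lowest in replicate 3, but so were Ash2l, Wdr5 and Rbbp5, and TPM was lower there across the genes tested (the median log2 ratio to replicate 1 was -0.63).

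The order by mean TPM was Ash2l, Dpy30, Wdr5, Rbbp5, Setd1a, Kmt2b, Kmt2c, Kmt2d, Kmt2a and Setd1b. Neighbours were called ordered when their log2 ratio within a library had the same sign in every replicate and a mean over 2 SD, which held for 6 of 9 neighbouring pairs. Without replicate 3 the order was the same, and 7 of 9 pairs were ordered. The closest ordered pair was Kmt2b over Kmt2c, at a log2 ratio of 0.25 ± 0.04 (SD, n = 3). Dpy30 and Wdr5 (0.50 ± 0.28), Rbbp5 and Setd1a (0.39 ± 0.35), and Kmt2d and Kmt2a (-0.17 ± 0.53; SD, n = 3) did not differ beyond their spread. The levels of Kmt2d and Kmt2a were nearly equal in replicate 1, and Kmt2a was the higher in replicate 3.

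The next comparison set each enzyme against its paralogue within each library. The log2 ratio of TPM of Kmt2b to Kmt2a was 0.95, 1.26 and 0.99 in replicates 1, 2 and 3, a mean of 1.07 ± 0.17 (SD, n = 3) or 2.09-fold. Without replicate 3 it was 1.10 ± 0.22 (SD, n = 2). That of Kmt2d to Kmt2c was -0.71, -0.69 and -1.53, a mean of -0.98 ± 0.48 (SD, n = 3), so Kmt2c was the higher by 1.97-fold. Without replicate 3 it was -0.70 ± 0.01 (SD, n = 2). That of Setd1b to Setd1a was -4.58, -4.23 and -5.52, a mean of -4.78 ± 0.67 (SD, n = 3), so Setd1a was the higher by 27.4-fold. Without replicate 3 it was -4.40 ± 0.24 (SD, n = 2). Each ratio kept its sign in the 3 libraries and exceeded 2 SD. Exact permutation tests of 3 against 3 log2 TPM values (two-sided) gave p of 0.30, 0.50 and 0.10, or 0.45, 0.50 and 0.30 after Benjamini-Hochberg adjustment over the 3 pairs. This test cannot go below 0.10 and takes the values of the 2 genes as independent, although they come from the same libraries, so it says nothing of the ratios within a library.

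The ratios rest on how the authors' software assigned reads to transcripts, since the deposited length of a gene is an abundance-weighted mean over its transcripts. For Setd1a that length was 2508, 2501 and 2295 nt, 37.5% of its longest annotated transcript of 6487 nt. Kmt2b was at 62.9% of 8469 nt, Kmt2c at 67.7% of 14967 nt, Setd1b at 70.9% of 8857 nt, Kmt2a at 73.9% of 16470 nt and Kmt2d at 96.4% of 19823 nt. With counts divided by the longest transcript instead, Setd1a was higher than Setd1b by 13.8-fold, Kmt2b higher than Kmt2a by 1.76-fold, and Kmt2d and Kmt2c differed by -0.46 ± 0.48 on the log2 scale (SD, n = 3), no longer beyond the spread. In this scaling the order of all 10 genes was the same as by TPM.

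Reads of most members could be told from those of other genes. The share of 50-nt words of a member's transcripts found in transcripts of another gene (GENCODE vM21, both strands) was 0 for Kmt2b and at most 5.45%, for Rbbp5, in every member but Setd1a. For Setd1a it was 51.2%, all shared with Gm49388, an annotated gene that overlaps it on the same strand and was given 0 counts in each replicate. Counted reads that match both genes were therefore all given to Setd1a. Its level is too high to the extent that some of them came from Gm49388, which the counts cannot show. Strand use in the counting is not given in the sources used here. On the opposite strand, AC061963.1, which overlaps the start of Kmt2a, and Gm42585, Hspe1-ps3 and Gm18343, within Kmt2c, had 0 counts in each replicate. There 9430064I24Rik, at the end of Setd1a, had at most 4. On the same strand, Gm48314, within Kmt2a, had 16, 9 and 1 counts in replicates 1, 2 and 3, and Gm20432, within Kmt2c, had 0 in each. Gm26745, a lincRNA gene that spans Setd1b on the opposite strand (123047373 to 123230871), was not among the genes with values.

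Head-to-head neighbours, starting within 1000 bp on the opposite strand, bear on a series about strand-specific R-loops. Setd1b had AI480526, a lincRNA gene starting 527 bp away, at 2.29, 1.16 and 0.88 TPM. Its TPM exceeded that of Setd1b in each replicate, but its estimated counts were lower (57, 20 and 15 against 123, 79 and 16). The start of 6030442K20Rik lay 301 bp from that of Rbbp5, at 0.28, 0.61 and 0.47 TPM against 18.8, 14.8 and 11.0 for Rbbp5. Mir3569, 654 bp from Kmt2b, had 0 counts. 4831440E17Rik, 284 bp from Kmt2c, was not among the genes with values.

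The core subunits were then compared with the enzymes as groups, a description with no test because the genes were chosen by name with results of these data known. The median log2 TPM of the 4 core subunits exceeded that of the 6 enzymes by 2.79, 2.88 and 4.09 in replicates 1, 2 and 3, a mean of 3.25 ± 0.73 (SD, n = 3). This is 6.91-fold, 7.34-fold and 17.0-fold. Without replicate 3 the mean was 2.83 ± 0.06 (SD, n = 2). In counts, which do not correct for length, the difference was 0.70 ± 0.61 (SD, n = 3). By replicate the core median was 1.28, 1.26 and 2.63 times that of the enzymes in counts. The order of some genes differed between counts and TPM: in replicate 1 Kmt2d had 2228 estimated counts and Dpy30 686, where their TPM was 4.69 and 47.8.

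Since every enzyme can use the same core, their summed level was set beside each core subunit. The 6 enzymes summed to 44.6, 31.2 and 12.9 TPM in replicates 1, 2 and 3. Ash2l was 1.81, 2.12 and 4.82 times this sum, and Dpy30 1.07, 1.13 and 2.76 times. Wdr5 was below the sum in replicates 1 and 2, at 0.814 and 0.926 times, and above it in replicate 3 at 1.56 times. Rbbp5 was below it in each, at 0.42, 0.473 and 0.852 times. These are ratios of RNA and say nothing of protein.

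Within the sum, Setd1a held 42.6% ± 6.17, Kmt2b 20.2% ± 1.60, Kmt2c 16.9% ± 0.946, Kmt2a 9.66% ± 0.825, Kmt2d 8.99% ± 3.03 and Setd1b 1.60% ± 0.486 (SD, n = 3). Setd1a was first in each replicate, and its share was 39.0% ± 0.767 (SD, n = 2) without replicate 3. With counts per longest transcript its share was 27.3% ± 4.14, beside 22.3% ± 0.956 for Kmt2b and 20.4% ± 0.531 for Kmt2c (SD, n = 3). The share of Kmt2d was 10.5% and 11.0% of summed TPM in replicates 1 and 2 and 5.50% in replicate 3.

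The next question was how far each gene varied between replicates. Relative to replicate 1, the median TPM ratio of all genes tested was -0.33 in replicate 2 and -0.63 in replicate 3 (log2), so this comparison used CPM scaled by TMM, which sets libraries to a common level. The TMM-scaled CPM of Kmt2d was 187, 193 and 49.8 in replicates 1, 2 and 3, and that of Setd1b 10.35, 11.98 and 3.11. Replicates 1 and 2 were close and replicate 3 was at 26.3% and 27.9% of their mean (geometric). The counting intervals do not overlap: unscaled Kmt2d CPM was 197.8 (Wilson 95% interval 187.2 to 208.9) in replicate 2 and 45.6 (40.4 to 51.5) in replicate 3, and Setd1b CPM 12.2 (9.80 to 15.2) and 2.77 (1.70 to 4.49). These intervals cover counting error only.

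**Figure D2:**
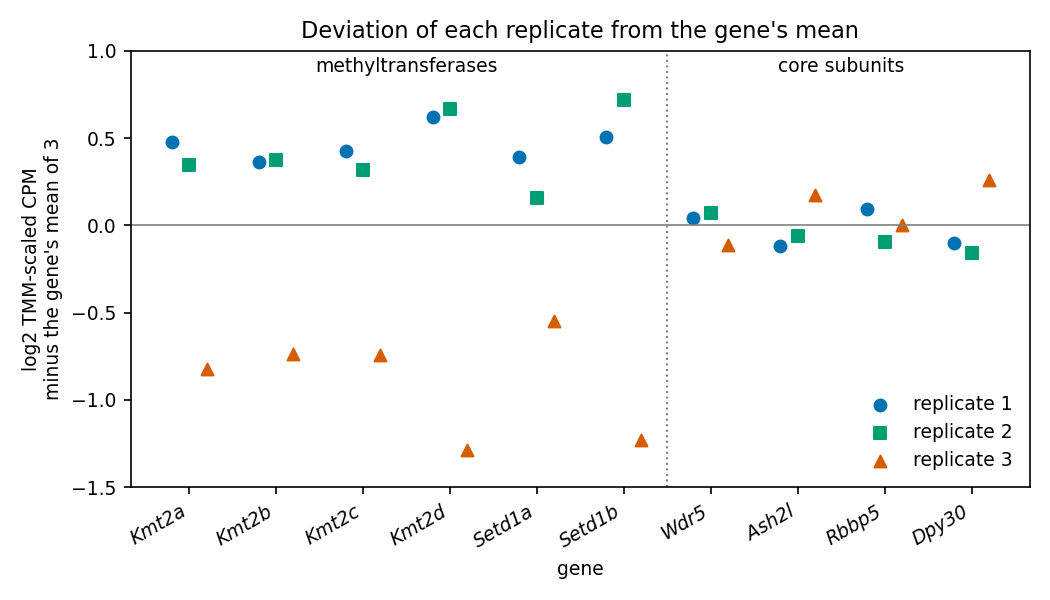
Distance of every replicate from the mean of the 3 for that gene, in log2 TMM-scaled CPM; points are replicates and the dotted line parts the 6 methyltransferases from the 4 core subunits. Replicate 3 lies between -0.55 and -1.29 for the enzymes and between -0.11 and 0.26 for the core.

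Spread beyond that of genes of similar abundance was tested for all 12577 genes that passed the filter on low counts, which all 10 members did (goodness-of-fit test of edgeR, threshold 0.05 after Benjamini-Hochberg adjustment). Of the 10 members 3 were called, against 1.84% of all genes tested and 1.1% of the protein-coding ones. Because the members were chosen with earlier results of these data known, these shares are a description only. Kmt2d had an adjusted p of 1.2e-05, Kmt2a of 0.0151 and Setd1b of 0.0205 by edgeR. All 3 were lowest in replicate 3, and 0.724% of the genes tested were both called and lowest there. With a DESeq2 dispersion trend, where 0.891% of genes were called, Kmt2d alone of the members was called (Kmt2a had an adjusted p of 0.0771 and Setd1b of 0.235), and Setd1b lost its call with no filter on low counts (0.0564, with 1.19% of genes called). Kmt2b (adjusted p 0.0517), Kmt2c (0.0679) and Setd1a (0.325) did not pass, and neither did the 4 core subunits, each with an adjusted p of 1 by edgeR. Unadjusted p was under 0.05 for 6 of 6 enzymes and 0 of 4 core subunits, against 6.96% of all genes tested; for the core the count is near that background.

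The calls depend on replicate 3. Without it 0 of 10 members were called by edgeR, against 0.683% of 13608 genes tested, and 0 had an unadjusted p under 0.05, against 3.75%, so both counts are near the background. Kmt2d kept its call without replicate 1 (adjusted p 0.000109 by edgeR, with 0.709% of genes called) and without replicate 2 (0.00583, with 0.474% called). Kmt2a lost its call without replicate 1 (adjusted p 0.0778 by edgeR) and without replicate 2 (0.130), and Setd1b without replicate 2 (0.210).

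Replicate 3 against the mean of replicates 1 and 2 gave, on the log2 scale of TMM-scaled CPM, -1.93 for Kmt2d, -1.84 for Setd1b, -1.24 for Kmt2a, -1.11 for Kmt2c, -1.10 for Kmt2b and -0.82 for Setd1a. Of the 12577 genes tested, 13 were lower than Kmt2d, 17 lower than Setd1b, 123 lower than Kmt2a and 518 lower than Setd1a. The core subunits gave -0.17 for Wdr5, 0.01 for Rbbp5, 0.26 for Ash2l and 0.39 for Dpy30. The median of all genes tested was 0.01. Between replicates 1 and 2 the 6 enzymes differed by -0.23 to 0.21 and the core by -0.19 to 0.06, ranges that overlap, so enzymes and core did not separate between those libraries.

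Transcript length moved with this result. The deposited lengths of the enzymes averaged 2435 nt (Setd1a) to 19102 nt (Kmt2d) and those of the core 691 nt (Dpy30) to 2754 nt (Wdr5). The 1033 tested genes of at least 5000 nt had a median of -0.23 in replicate 3 against the others. Genes of similar length, within 20% of a member, give a closer comparison. For Kmt2d there were only 5 such genes, with a median of -0.45, and 0 of them were lower than Kmt2d. For Kmt2a there were 53, with a median of -0.42, of which 4 were lower. For Kmt2c there were 121, with a median of -0.26, of which 7 were lower. Of 806 genes similar to Setd1b 3 were lower, of 1266 similar to Kmt2b 40, and of 3217 similar to Setd1a 113. The comparison is thus thinnest for the longest enzymes. GC content of the longest transcript was 47.6% (Kmt2c) to 59.1% (Kmt2b) in the enzymes and 42.3% (Dpy30) to 51.5% (Wdr5) in the core. The medians were 57.7% for the enzymes and 45.5% for the core, with 49.3% over the genes tested.

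**Figure D3:**
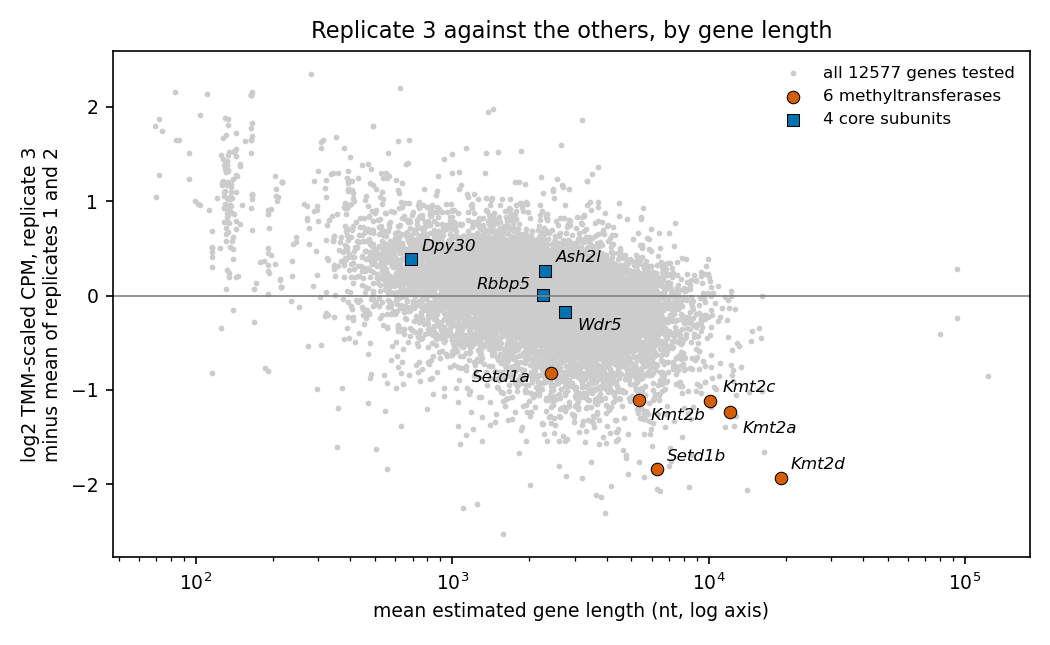
Each point is a gene tested: its mean deposited length in nt (log axis) against replicate 3 minus the mean of replicates 1 and 2 in log2 TMM-scaled CPM; grey points are all 12577 genes tested, coloured points the members. The cloud slopes down with length, and the 6 methyltransferases lie on its lower side while the 4 core subunits lie within it.

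In replicate 3 against the others the enzymes had a median of -1.18 and the core of 0.13. With the trend of each replicate with length removed, the medians were -0.88 for the enzymes, between -0.77 and -1.60, and 0.07 for the core. With the GC trend alone removed they were -1.16 and 0.13, and 3 members were called, against 1.92% of all genes. With both trends removed they were -0.83 and 0.03. After the length correction 1 of 10 members was called by edgeR, against 1.48% of all genes, Kmt2d at an adjusted p of 9.29e-05, with Setd1b at 0.0588 and Kmt2a at 0.156. Only 5 tested genes lay within 20% of the length of Kmt2d. The trend removed at that length thus rests on few genes, and the correction is least certain for Kmt2d. Summed marker levels, in TPM not rescaled between libraries, were lowest in replicate 3 for stem cells (1060, 837 and 689 in replicates 1, 2 and 3) and fibroblasts. So were the sums for primitive endoderm (7.21, 5.74 and 3.09) and mesoderm (1.27, 1.36 and 0.93), but not that for neural markers (17.7, 11.9 and 13.6). Most of the primitive endoderm sum was Lama1 (6.12, 4.78 and 2.69). In TMM-scaled CPM, the median of replicate 3 against the others was -0.02 over 8 stem cell markers. Over markers that passed the filter it was -0.76 for 2 fibroblast, -0.44 for 2 primitive endoderm and 0.37 for 3 neural genes. The 1 mesoderm marker that passed, Eomes, was at 0.33. The part of these cell types in the result was not tested. Fewer cells of a type and less RNA per cell cannot be told apart in bulk RNA.

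The other listed genes of the pathway were read from the same fit. Of 39 related genes, 36 passed the filter. Of these 0 were called by edgeR, against 1.84% of all genes tested, 0 with a DESeq2 dispersion trend, against 0.891%, and 2 had an unadjusted p under 0.05, against 6.96%, so these counts are near the background. On simulated data the test called 3 of 50 genes lowered 2-fold in 1 replicate, so changes of that size can be missed. The 36 genes had a median of -0.10 in replicate 3 against the others. Their lowest value, -0.76 for the demethylase and reader Phf8, lay above the highest of the 6 enzymes. The 10 of them with a length of at least 5000 nt had a median of -0.35, from -0.70 for Phf2 to 0.19 for Bod1l. A difference between the enzymes and these genes as groups was not tested.

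**Figure D4:**
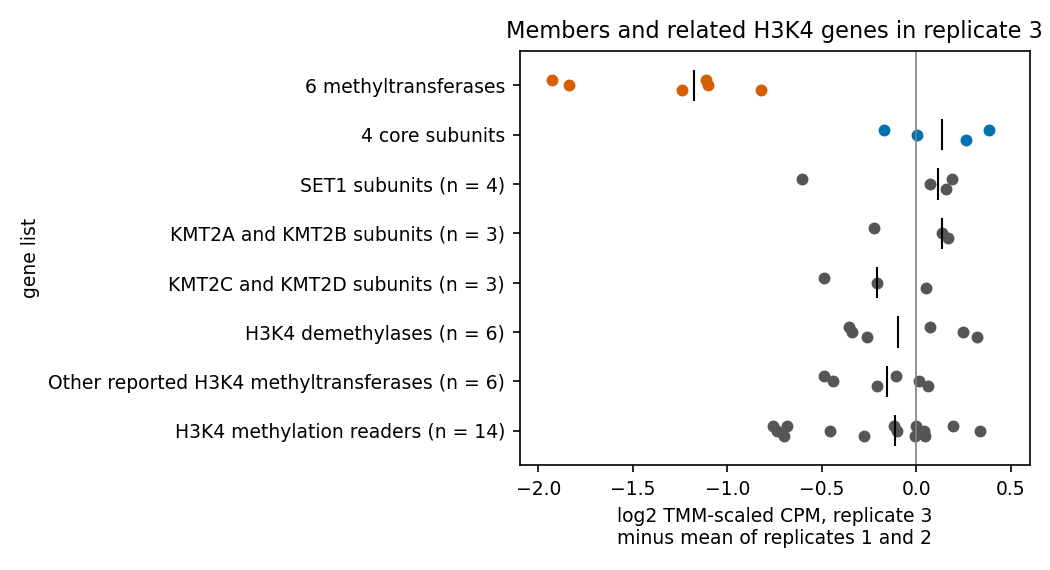
Replicate 3 minus the mean of replicates 1 and 2 in log2 TMM-scaled CPM for the members and for 6 lists of related genes (those that passed the filter); points are genes, spread vertically for legibility, and black bars are medians. The 6 methyltransferases, from -1.93 to -0.82, lie to the left of every related gene.

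By role, the listed subunits outside the shared core were nearly all expressed. All 4 SET1 subunits reached a mean of 1 TPM, from Bod1l at 3.96 ± 0.762 to Wdr82, which links the complex to transcribing polymerase, at 24.8 ± 4.79 TPM (SD, n = 3). Cxxc1, which binds unmethylated CG dinucleotides, had 5.14, 4.06 and 3.15 TPM. Of the KMT2A and KMT2B partners, Psip1 had 26.6 ± 3.79 and Men1, the menin gene, 6.32 ± 1.44 TPM (SD, n = 3), and Hcfc2 was lowest at 3.25 ± 1.40 TPM (SD, n = 3). Of the KMT2C and KMT2D partners, Paxip1 had 14.5 ± 5.26, the H3K27 demethylase Kdm6a 9.69 ± 1.34 and Ncoa6 8.09 ± 2.40 TPM (SD, n = 3). Pagr1a was listed at 0 counts in each replicate, but Gm42742, which overlaps it on the same strand, had 111.5, 67 and 58.5 counts, so the value of Pagr1a is uncertain.

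The H3K4 demethylases reached a mean of 1 TPM in 6 of 7 genes. Kdm1a had 27.2 ± 11.5 and Kdm5b 23.1 ± 7.66 TPM (SD, n = 3), above every enzyme of the set. Kdm5a had 10.2 ± 1.43 and Kdm5c 9.36 ± 3.24 TPM (SD, n = 3), and Kdm5d was lowest at 0.167 ± 0.0551 TPM (SD, n = 3). In replicate 3 against the others, Kdm5b was at -0.34 and Kdm5c at -0.35 on the log2 scale. Their lengths of 6153 and 5688 nt lie near those of Setd1b and Kmt2b. Other related genes near those lengths ran from 0.07 for Kdm5a (5353 nt) to -0.70 for Phf2 (5494 nt), with Kmt2e (6076 nt) at -0.49. Among other genes reported to methylate this lysine, 4 of 7 reached 1 TPM, with Smyd2 highest at 5.40 ± 0.705 and the meiotic enzyme Prdm9 lowest at 0.417 ± 0.230 TPM (SD, n = 3). Kmt2e, a KMT2 family gene, had 3.06 ± 1.24 TPM (SD, n = 3). Readers of the mark reached 1 TPM in 13 of 14 genes, from Phf2 at 0.467 ± 0.210 to Ing3 at 11.3 ± 2.16 TPM (SD, n = 3).

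The protein-coding genes most like the median profile of the 10 members were Abhd17c, Hdac6 and Alg3, at root mean square differences of 0.0646, 0.0657 and 0.0783 in log2(TPM + 1) over the 3 replicates, among 21815 candidates. The median profile was 3.78, 3.33 and 2.33 in replicates 1, 2 and 3. Such likeness over 3 libraries describes levels only.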

How the data were processed

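RNA-seq tables of 3 replicates of E14 cells were used. STAR, RSEM and build mm10 are named in the submitters' processing notes, without versions; annotation release and strand setting are not given in the sources used here. Per the file headers, the authors deposited an expected count per gene without normalization, and a TPM scaled by effective length and library. The deposited FPKM was not used. The deposited length was taken to be RSEM's abundance-weighted mean over transcripts, from its name in the file headers.

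Genes were matched by Ensembl identifier to GENCODE vM21 (GRCm38, the same assembly as mm10). Expected counts were rounded for edgeR 4.0.16 in R 4.3.3: TMM, filterByExpr, intercept-only design, trended dispersion, goodness-of-fit test with Benjamini-Hochberg adjustment over 12577 genes. Log2 CPM used a prior of 0.5 counts. Trends with length or GC content were loess fits per replicate. On simulated data for the spread between the 3 replicates, 50 genes were lowered in 1 replicate at each fold and 12288 genes were tested. Calls were made for 3 of those lowered 2-fold, 37 of those lowered 4-fold, 33 for 8-fold and 28 for 16-fold, and 0 calls were false. Lowered genes that failed the filter counted as not called. The data were drawn with the dispersion that the test assumes and without a length trend, so the 0 false calls do not carry over to these libraries. Other steps used Python 3.11.15 and scipy 1.17.1; DESeq2 1.42.0 served as an alternative.

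The members and lists were chosen with earlier results of these data known. The rule for named genes allowed all members, genes of the related lists that are extremes or pass a limit, extreme markers, overlapping and head-to-head genes, and the 3 genes most like the members; other related genes, Gm42742 and the markers at 0 counts were named after their values were seen.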

Additional observations from a re-analysis of the deposited data

How the results depend on the processing

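In CPM, which ignores length, the log2 ratio of Kmt2b to Kmt2a reversed to -0.14, that of Kmt2d to Kmt2c became -0.058 and that of Setd1b to Setd1a -3.34, core minus enzymes became 0.70, and 3 neighbouring pairs were ordered in place of 6; the change follows from leaving out length. Per kb of the longest transcript the 3 ratios were 0.82, -0.46 and -3.79. With log2(TPM + 1) Kmt2b to Kmt2a was 0.82 and Setd1b to Setd1a -3.04, since a pseudocount shrinks low levels.

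The number of members called for spread was 1 with a DESeq2 dispersion trend, 1 with the length trend removed and 1 with length and GC trends removed, in place of 3, 2 with no filter on low counts, and from 0 to 2 when each replicate was left out; the call of Kmt2d held in all but the fit without replicate 3. Over all genes the calls were 232, against 112 with the DESeq2 dispersion trend and 63 to 93 when each replicate was left out. The median deviation of the 10 members in replicate 3 from the mean of the 3 was -0.64, -0.52 with the length trend removed and -0.50 with length and GC trends removed. GC and combined corrections were chosen after seeing the data. Leaving out each replicate gave 0.97 to 1.13 for Kmt2b to Kmt2a, -1.12 to -0.70 for Kmt2d to Kmt2c, -5.05 to -4.40 for Setd1b to Setd1a and 2.83 to 3.48 for core minus enzymes. Depth limits Setd1b most, with 16 counts in replicate 3.

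No paired analysis was possible because only RNA-seq tables were used, and a number they share with an R-loop sample links no values.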
